A study of Saccharomyces cerevisiae with 12 samples.

Results

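The genes described here encode 39 enzymes of amino acid biosynthesis in budding yeast and the activator Gcn4, measured in wild-type cells that grew in medium already used by other yeast cultures. They were taken by symbol from the platform's annotation, 40 of 6388 gene probes, and each symbol matched 1 probe printed in 2 spots. They comprise 5 arginine genes, 5 histidine genes, 6 lysine genes, 4 tryptophan genes, 6 genes of the aromatic trunk and its side steps, 5 threonine genes, 4 serine genes, 2 asparagine genes, 2 proline genes and the regulator gene GCN4. The sulfur and branched-chain pathways are not among them.

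These pathways share a layer of control. When any amino acid runs short, uncharged tRNA activates the kinase Gcn2, translation of the GCN4 mRNA increases, and the activator Gcn4 raises transcription of biosynthetic genes across many branches at the same time. In medium that supplies amino acids the same genes run at a basal level, and some branches carry controls of their own, such as repression of arginine genes by arginine through Arg80, Arg81 and Mcm1.

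All cells were wild-type BY4742, an alpha strain that carries deletions of HIS3, LEU2, LYS2 and URA3 and therefore takes histidine, leucine, lysine and uracil from the medium. Donor cultures of wild type or of a strain lacking CBF1, NPL3, BUR2 or CHO2 were kept in synthetic complete medium containing 2% glucose for 2 doublings, their filtered supernatant was given to fresh wild-type cells, and these grew for another 2 doublings. There were 6 groups of 2 arrays: cbf1, npl3 and wild-type medium in a first set, and bur2, cho2 and a second wild-type medium in a second set. Each array held a sample in 1 dye and, in the other, RNA from a single large wild-type culture that served as reference throughout, with 1 array per dye in each group, so array number and dye go together. The sources do not settle if the arrays within a group came from separate cultures or from 1 RNA labelled in either dye, and n counts arrays.

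The values are log2 ratios of sample to reference, averaged over the duplicate spots. All 40 members were read well above background: the dimmest, the saccharopine dehydrogenase gene LYS1, stayed at 3.74 times its background or more, and 0 members had a saturated spot. Median signals over the arrays were 185 to 507 in Cy5 and 170 to 367 in Cy3, over backgrounds of 43 to 53. The strain's label held in the alpha-specific genes, with MF(ALPHA)1 at a median of 234 times background, STE3 at 40.5 and SAG1 at 69.2, while the 6 a-specific genes stood at 1.23 (MFA2) to 2.23 (STE2). LEU2 and URA3, deleted in this strain, stood at 1.14 and 1.10 times background and LYS2 at 2.01, whereas HIS3 read 3.96.

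Cells in all 6 media had lower transcript levels of most amino acid biosynthesis genes than the reference culture, by small amounts. Averaged over the 12 arrays, 28 of the 40 members were lower and 5 higher at an adjusted p under 0.05, and 7 passed in neither direction (limma over all 6388 probes, Benjamini-Hochberg adjustment). The background in this comparison is high, with 70% of all probes called, 35.6% lower and 34.4% higher. The median log2 ratio of the members was -0.11, against -0.0034 over all probes. A mean under -0.1 was found for 21 members and for 19.2% of all probes, while 19 members were below 0 on every array, as were 15.1% of all probes, and 2 were above 0 on every array, as were 19.2% of all probes. This comparison uses a single reference RNA, so its test leaves out the spread between reference cultures, and how the reference culture was grown is not given in the labels. All 4 alpha-specific mating genes were also higher than the reference, with log2 ratios from 0.20 (MF(ALPHA)1) to 0.88 (SAG1), and 1 of the 6 a-specific genes was lower, STE2 at -0.12, and what part this has in the members' values was not tested. Medium use and reference culture cannot be told apart here, and wild-type medium gave values in the same range: the member medians were -0.13 and -0.094 in the wild-type media and -0.13, -0.11, -0.11 and -0.12 in the media of cbf1, npl3, bur2 and cho2 strains.

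**Figure D1:**
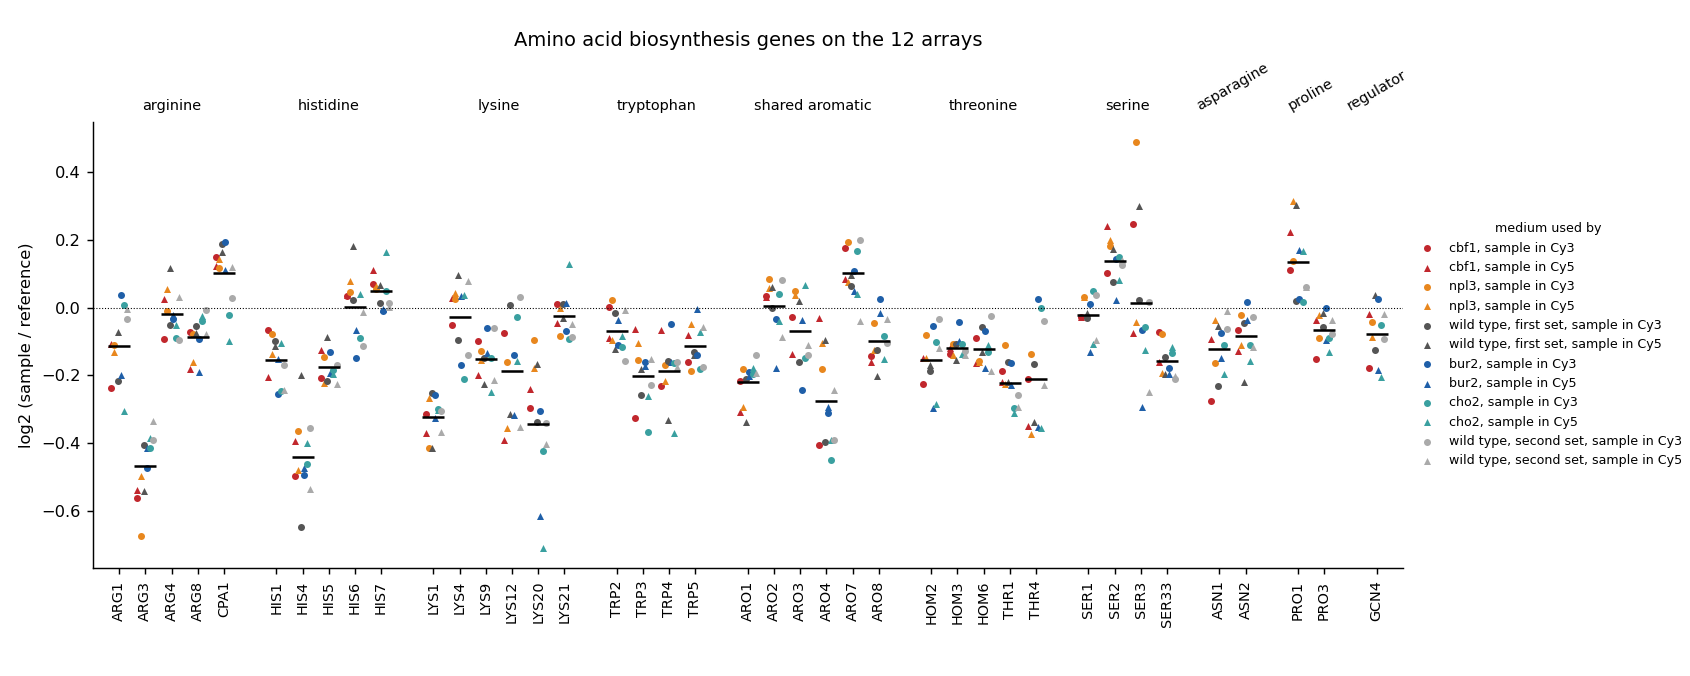
Log2 ratio of sample to reference (vertical axis) for each of the 40 members (horizontal axis, grouped by branch) on the 12 arrays, with colour for the medium, circles for samples in Cy3, triangles for samples in Cy5 and a black line for the mean of the 12. The lowest means are those of ARG3 (-0.47) and HIS4 (-0.44), and 2 members, SER2 and PRO1, lie above 0 on every array.

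Of the arginine genes, 3 were lower, 1 was higher and 1 passed in neither direction. This and the other branch counts stand beside 35.6% of all probes called lower and 34.4% called higher. ARG3, which encodes ornithine carbamoyltransferase, had the lowest mean of all members. Its log2 ratios were -0.56 and -0.54 in cbf1 medium, -0.67 and -0.50 in npl3 medium, -0.40 and -0.54 in the first wild-type medium, -0.47 and -0.42 in bur2 medium, -0.41 and -0.39 in cho2 medium, and -0.39 and -0.34 in the second wild-type medium. All 12 values lie below those of every other arginine gene. Its mean of -0.47 ± 0.018 corresponds to 72.2% of the reference level (limma, adjusted p = 1.3e-07). The error, as for the other means against the reference, is the SE from the limma fit to all 12 arrays. That fit takes out the group means and the dye term, so the SE leaves out the spread between media and between dyes. The SD of the 12 ARG3 values was 0.097. ARG1 (argininosuccinate synthetase) averaged -0.11 and ARG8 (acetylornithine aminotransferase) -0.09, both called lower, and ARG4 (argininosuccinate lyase) averaged -0.02 with an adjusted p of 0.23. CPA1, the small subunit of the carbamoyl phosphate synthetase that serves arginine, went the other way at 0.10 ± 0.013 (adjusted p = 0.00015), positive on all arrays but those of cho2 medium.

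The histidine branch showed a similar spread, with 3 genes lower and 1 higher. HIS4, whose product carries out several steps of the pathway, averaged -0.44 ± 0.036, or 73.6% of the reference (limma, adjusted p = 7.7e-06). Its ratios were -0.50 and -0.39 in cbf1 medium, -0.36 and -0.48 in npl3 medium, -0.65 and -0.20 in the first wild-type medium, -0.49 and -0.47 in bur2 medium, -0.46 and -0.40 in cho2 medium, and -0.36 and -0.54 in the second wild-type medium. The arrays of the first wild-type medium thus span the whole range of this gene. HIS1, which encodes the enzyme of the entry step, and HIS5, the histidinol-phosphate aminotransferase, averaged -0.16 and -0.17 and were below 0 on all 12 arrays. HIS6, a phosphoribosyl isomerase, stood at the reference level on average, and HIS7, the imidazole glycerol phosphate synthase, was higher at 0.05 ± 0.011 (adjusted p = 0.0034). The HIS7 call was lost with loess per print tip (0.027, adjusted p = 0.094) and in the deposited log2 table (0.011, adjusted p = 0.48).

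In the lysine branch 4 of 6 genes were lower and 0 higher, against 35.6% and 34.4% of all probes. The branch had the lowest median of those with 4 or more members, -0.17. LYS1, the last enzyme of the pathway, lay between -0.42 and -0.25 on all 12 arrays, with a mean of -0.32 ± 0.018 (79.9% of the reference; limma, adjusted p = 9.6e-07). LYS9, the enzyme before it, averaged -0.15 ± 0.011 (adjusted p = 3.4e-06). LYS12, which encodes homoisocitrate dehydrogenase, averaged -0.19, but its mean was -0.06 with the sample in Cy3 and -0.31 with the sample in Cy5. Dye and array number cannot be told apart in such splits. LYS4, the homoaconitase gene, averaged -0.03 and was not called (limma, adjusted p = 0.18), with means of -0.11 for samples in Cy3 and 0.05 for samples in Cy5. LYS20 and LYS21 are described with the other isoenzymes.

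All 4 tryptophan genes and 4 of the 6 other aromatic genes were called lower, as were 35.6% of all probes. TRP3 (-0.20) and TRP4 (-0.19), which act between chorismate and indole, and TRP5, the tryptophan synthase (-0.11), were below 0 on every array, and TRP2, the anthranilate synthase, averaged -0.07 (limma, adjusted p = 0.014). ARO1, whose single polypeptide catalyses the middle of the trunk up to chorismate, ranged from -0.34 to -0.14 with a mean of -0.22 ± 0.012 (85.8% of the reference; adjusted p = 8.9e-07). ARO8, an aromatic aminotransferase, averaged -0.10. The chorismate synthase gene ARO2 averaged 0.00 ± 0.016, whereas ARO7, the chorismate mutase that opens the phenylalanine and tyrosine branch, was higher at 0.10 ± 0.016 (adjusted p = 0.00055) and above 0 on 11 of the 12 arrays.

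All 5 genes of the threonine branch were called lower, as were 35.6% of all probes. HOM3 (aspartate kinase), HOM2 (aspartate semialdehyde dehydrogenase) and HOM6 (homoserine dehydrogenase) averaged -0.12, -0.15 and -0.12 and stayed below 0 on all 12 arrays. THR1, the homoserine kinase, ranged from -0.31 to -0.11 with a mean of -0.22 ± 0.010 (85.7% of the reference; limma, adjusted p = 2.8e-07). THR4, the threonine synthase, averaged -0.21 and, like LYS12, differed by dye, with means of -0.09 for samples in Cy3 and -0.33 for samples in Cy5. HOM3 was the member with the smallest error, an SE of 0.0093.

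The serine genes were divided, with 1 lower, 1 higher and a median of -0.0043. SER2, the phosphatase that releases serine, was the member with the highest mean, 0.14 ± 0.018 (limma, adjusted p = 0.00013), and ranged from 0.02 to 0.24. SER33, a phosphoglycerate dehydrogenase, was lower at -0.16 ± 0.012 (adjusted p = 4.9e-06), and the aminotransferase gene SER1 averaged -0.02 (adjusted p = 0.22). Both asparagine synthetase genes were lower. Of the proline genes, PRO1, the glutamate kinase, was higher at 0.13 ± 0.017 (adjusted p = 0.00011) with values from 0.02 to 0.31. Its mean was 0.06 for samples in Cy3 and 0.21 for samples in Cy5. PRO3, the reductase of the last step, was lower at -0.07 (adjusted p = 0.0032).

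GCN4 itself averaged -0.08 ± 0.027, or 94.7% of the reference (limma, adjusted p = 0.026). Its ratios were -0.18 and -0.02 in cbf1 medium, -0.04 and -0.09 in npl3 medium, -0.13 and 0.04 in the first wild-type medium, 0.03 and -0.18 in bur2 medium, -0.05 and -0.21 in cho2 medium, and -0.09 and -0.02 in the second wild-type medium. They lie below 0 on 10 of the 12 arrays, and the groups overlap. The call was lost without any of 6 arrays, namely the first of cbf1 medium, of the first wild-type medium and of the second wild-type medium and the second of npl3, bur2 and cho2 medium, with adjusted p from 0.065 to 0.077. Gcn4 is controlled mainly in translation, so the mRNA level does not report the amount of the protein.

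Of the 4 isoenzyme pairs, LYS20 with LYS21 and ARO4 with ARO3 stood apart most. LYS20 and LYS21 both encode homocitrate synthase, which opens the lysine pathway, and LYS20 averaged -0.34 ± 0.031 against the reference (limma, adjusted p = 1.5e-05) while LYS21 averaged -0.02 ± 0.018 (adjusted p = 0.27). The log2 ratio of LYS20 was the lower of the pair on 12 of 12 arrays, with a mean difference of -0.32 (SD 0.22). ARO4 and ARO3 encode the DAHP synthases at the head of the aromatic trunk, inhibited by tyrosine and by phenylalanine respectively. ARO4 averaged -0.28 ± 0.024 (adjusted p = 1.3e-05) and ARO3 -0.07 ± 0.023 (adjusted p = 0.024), with ARO4 lower on 11 of 12 arrays. With the sample in Cy3 their means were -0.36 and -0.11, and with the sample in Cy5 -0.19 and -0.03. The ARO3 call was lost without 1 array of any group, the second of cbf1, npl3 and the second wild-type medium or the first of the others, with adjusted p from 0.058 to 0.072. SER33 was lower than SER3 on 9 of 12 arrays, and ASN1 (-0.12 ± 0.021, adjusted p = 0.00076) lower than ASN2 (-0.09 ± 0.011, adjusted p = 0.00016) on 8 of 12. The differences of both pairs went either way, with means of -0.17 (SD 0.20) and -0.04 (SD 0.12). Isoenzyme genes of this kind are similar in sequence, and cross-hybridization between them was not tested.

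**Figure D2:**
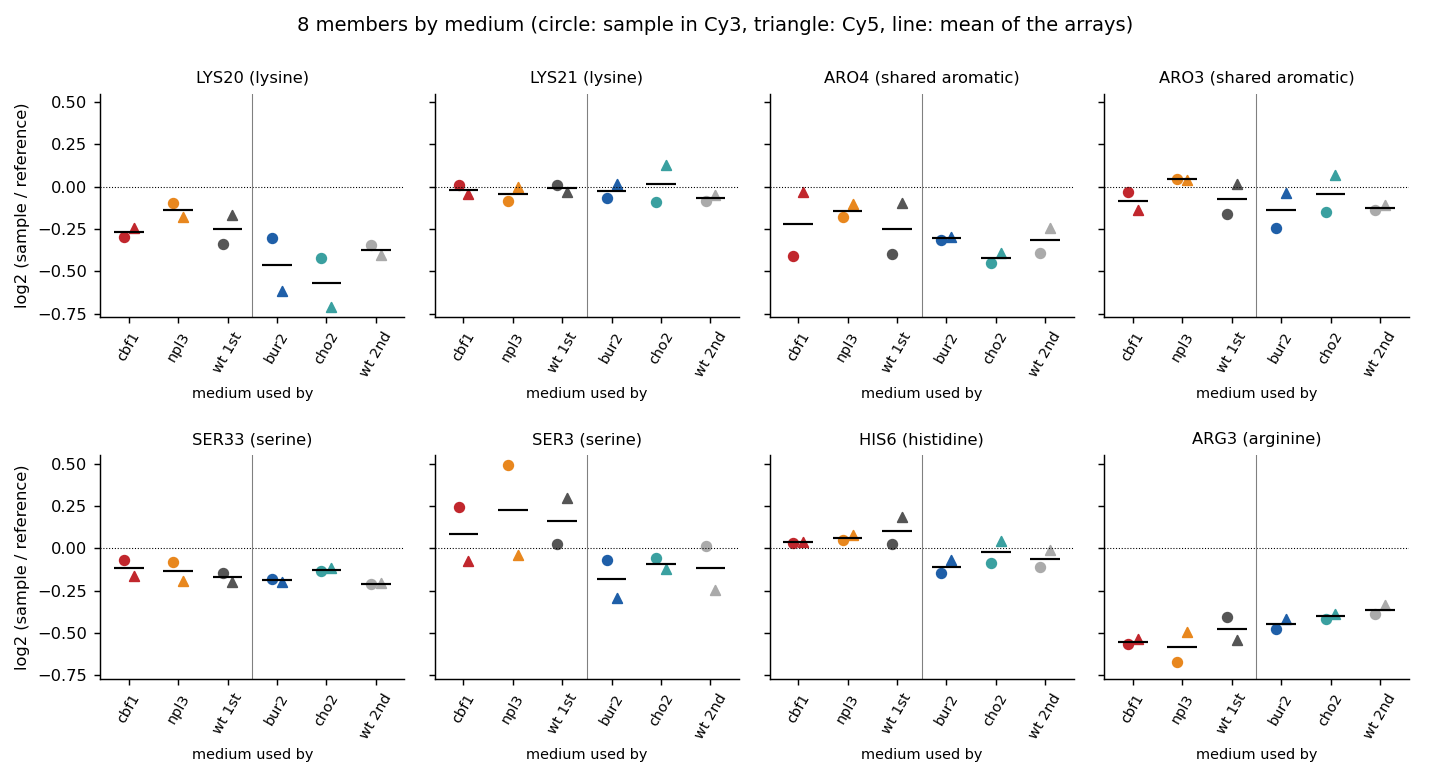
Log2 ratio of sample to reference (vertical axes) by the strain that had used the medium (horizontal axes) for LYS20, LYS21, ARO4, ARO3, SER33, SER3, HIS6 and ARG3. Each group has a circle (sample in Cy3), a triangle (sample in Cy5) and a line for their mean, and the grey line parts the first set from the second. LYS20 reaches its lowest values, -0.62 and -0.71, on the second arrays of bur2 and cho2 medium, and LYS21 stays between -0.09 and 0.13.

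Whether medium used by a slow-growing deletion strain alters these genes was asked by setting each deletion-strain medium against the wild-type medium that belongs to it. No member passed in any of the 4 media: limma called 0 of 40 members and 0 of 6388 probes (background 0%) in each. At an unadjusted p under 0.05 there were 0 members in cbf1 medium (1.33% of all probes), 0 in npl3 medium (2.83%), 2 in bur2 medium (3.79%) and 2 in cho2 medium (1.97%). These counts rest on single arrays: with 1 array left out they ran from 0 to 2, 0 to 6, 0 to 3 and 0 to 6. The 6 in npl3 medium came without the second array of the first wild-type medium, and cho2 medium had 6 without its first array and 0 without its second. In bur2 medium there were 0 without its second array or the first array of the second wild-type medium, and 3 without the second array of that medium. The differences were small throughout, from -0.19 (LYS20 in cho2 medium) to 0.11 (LYS20 in npl3 medium). Every 95% interval of a member lay between -0.44 and 0.41, and the SE ran from 0.032 (HOM3) to 0.15 (SER3) with a median of 0.058. The comparisons of a set share their wild-type arrays, so likenesses between cbf1 and npl3 medium, or between bur2 and cho2 medium, carry no weight of their own.

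**Figure D3:**
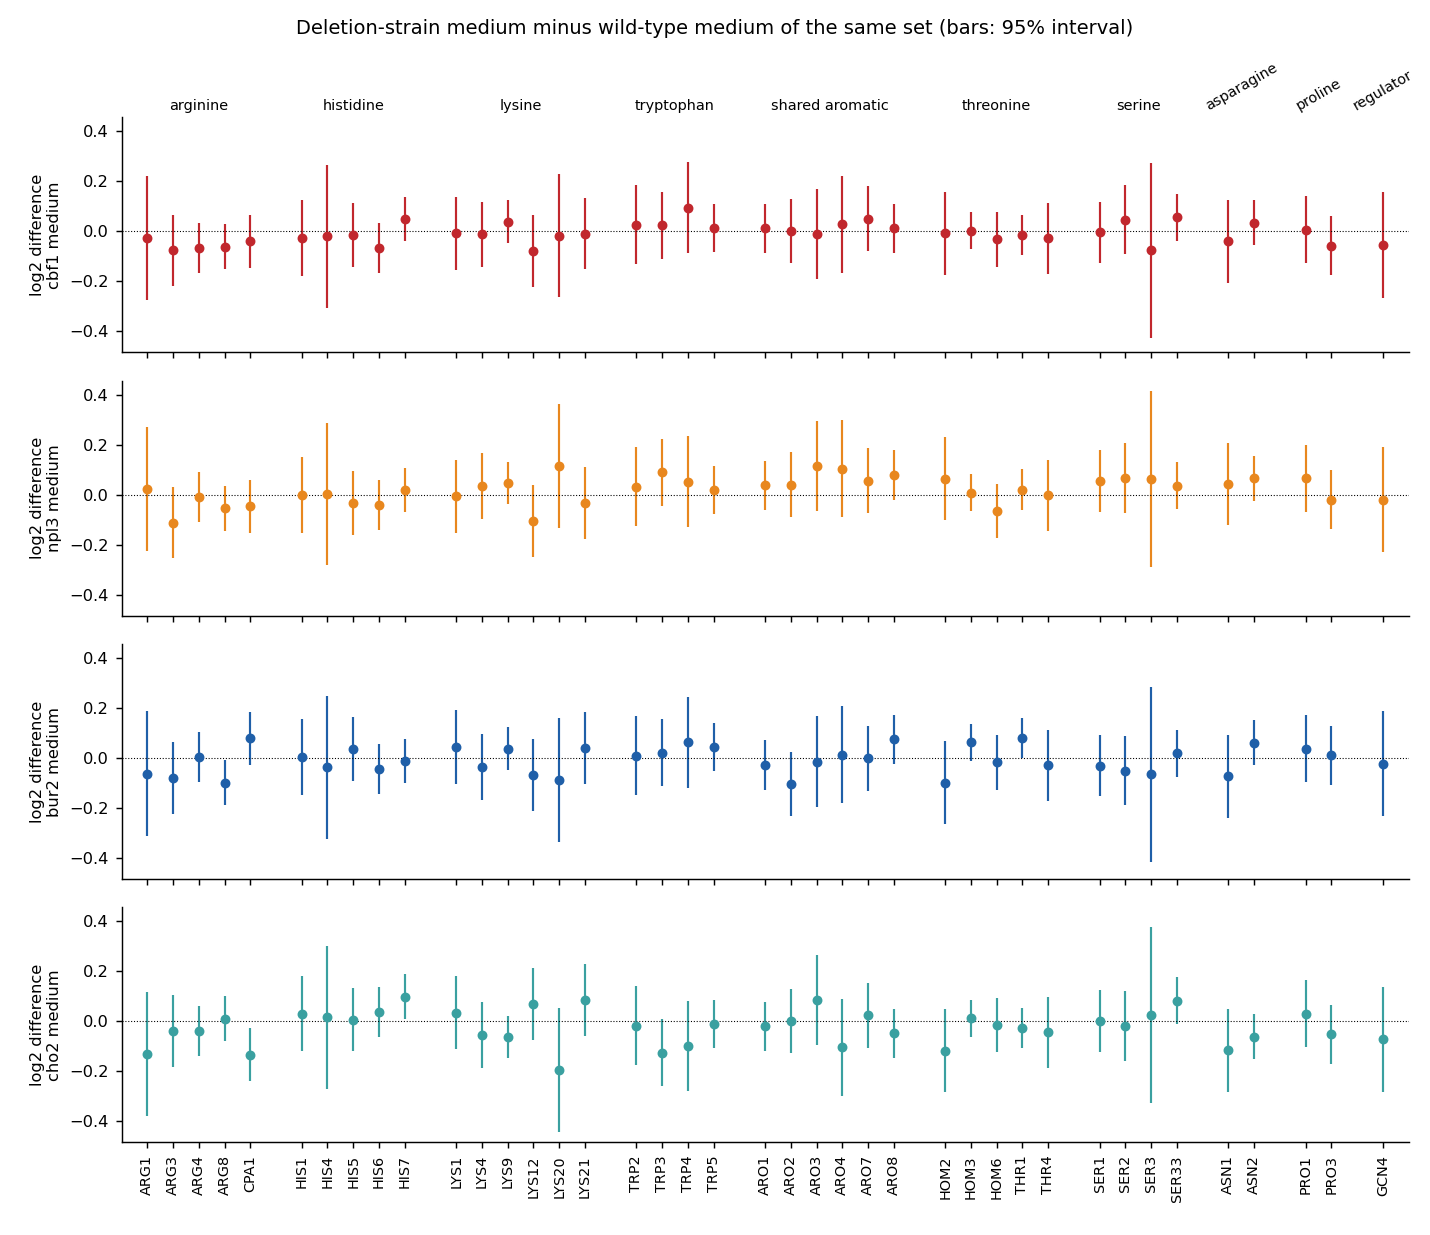
Log2 difference between each deletion-strain medium and the wild-type medium of its set (vertical axes) for the 40 members grouped by branch (horizontal axis), as the fitted value (point) with its 95% interval (bar), n = 2 arrays per group. All 40 intervals include 0 in cbf1 and npl3 medium and 38 of 40 in bur2 and cho2 medium, and the widest are those of SER3, HIS4 and LYS20.

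In cbf1 medium the members had a median log2 difference of -0.0099, against 0.00085 over all probes, and 16 of 40 lay above 0 (50.8% of all probes). The 4 members with the smallest p were HIS6 (-0.07 ± 0.044), ARG8 (-0.06 ± 0.039), ARG4 (-0.07 ± 0.044) and SER33 (0.06 ± 0.041), each with an adjusted p of 0.9996 by limma. Each group had 2 arrays, but the error is the SE from the single limma fit to the arrays of all groups. A gene therefore has the same SE in each comparison of 2 media. All 5 arginine genes were below 0, with a median of -0.061, and all 4 tryptophan genes above it, with a median of 0.026. Without the first cbf1 array the median over all members was 0.015, while it was -0.033 without the first array of its wild-type medium and 0.015 without the second, so its sign rests on single arrays.

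In npl3 medium the median was 0.028 over the members and 0.00080 over all probes, with 27 of 40 members above 0 (50.8% of all probes). All 6 shared aromatic genes (median 0.067), all 4 tryptophan genes (0.042) and all 4 serine genes (0.059) were among them. The smallest p values belonged to ARO8 (0.08 ± 0.043), ARG3 (-0.11 ± 0.063), ASN2 (0.07 ± 0.039) and LYS12 (-0.10 ± 0.063), with an adjusted p of 0.9998 by limma. Leaving out the first array of the first wild-type medium took the member median to 0.0049.

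In bur2 medium the median was -0.0071 over the members and -0.0016 over all probes, with 19 of 40 above 0 (48.7% of all probes). Without the second bur2 array the member median was 0.022. The members under that unadjusted limit were ARG8, with a difference of -0.10 ± 0.039, and THR1, with 0.08 ± 0.035. Next came the aspartate kinase gene HOM3 (0.06 ± 0.032) and ARO2 (-0.10 ± 0.056), and the adjusted p of all 4 was 0.9993 by limma. The ratios of ARG8 were -0.09 and -0.19 in bur2 medium and -0.01 and -0.08 in wild-type medium. Those of THR1 were -0.16 and -0.23 against -0.26 and -0.29. In both genes the arrays of the groups do not overlap, by a narrow margin, as in 8 of 40 members and 19.1% of all probes.

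In cho2 medium the median was -0.018 over the members and -1.9e-04 over all probes, and 17 of 40 members lay above 0 (49.8% of all probes). The members under the unadjusted limit were CPA1, with a difference of -0.13 ± 0.046, and HIS7, with 0.10 ± 0.039. They were followed by TRP3 (-0.13 ± 0.058) and SER33 (0.08 ± 0.041), and the adjusted p of all 4 was 0.9998 by limma. CPA1 stood at -0.02 and -0.10 in cho2 medium and at 0.03 and 0.12 in wild-type medium, and cho2 medium is the group where this gene was below the reference. HIS7 stood at 0.05 and 0.16 in cho2 medium and at 0.01 and 0.00 in wild-type medium. Neither gene's groups overlap, as in 9 of 40 members and 17% of all probes. All 5 histidine genes were above 0 in this comparison (median 0.031), and all 4 tryptophan genes below it (median -0.059).

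The log2 differences of GCN4 were -0.05, -0.02, -0.02 and -0.07 in the cbf1, npl3, bur2 and cho2 media, each with an SE of 0.092. LYS20 differed by -0.02, 0.11, -0.09 and -0.19 (SE 0.11), and LYS21 by -0.01, -0.03, 0.04 and 0.09 (SE 0.062). ARO4 differed by 0.03, 0.10, 0.01 and -0.10 (SE 0.085), and ARO3 by -0.01, 0.11, -0.01 and 0.08 (SE 0.079). None of these passed, and each 95% interval includes 0.

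The 8 arrays of deletion-strain media, pooled, against the 4 of wild-type media gave a member median of 0.00086 (-5.3e-04 over all probes). Limma called 0 of 40 members (background 0%), and 0 members had an unadjusted p under 0.05, against 2.88% of all probes. The smallest p values were those of ARG8 (-0.05 ± 0.024), ARG3 (-0.08 ± 0.038), SER33 (0.05 ± 0.025) and HIS7 (0.04 ± 0.024), with adjusted p of 0.999 by limma. The median was -0.022 without the first array of the first wild-type medium. All 5 arginine genes lay below 0, from -0.08 to -0.03, and 9 of the 10 aromatic and tryptophan genes above it. The single media did not all share these signs. In cbf1, npl3, bur2 and cho2 medium 0, 1, 2 and 1 of the 5 arginine genes lay above 0. Of the 10 aromatic and tryptophan genes 9, 10, 6 and 3 did, in the same order. A test of whether the effect of deletion-strain medium differed between the sets called 0 members (background 0%), with 0 at an unadjusted p under 0.05 against 0.845% of all probes. HOM2 (0.14 ± 0.089), TRP3 (0.11 ± 0.072), LYS20 (0.19 ± 0.13) and LYS9 (0.06 ± 0.046) came nearest, with adjusted p of 0.9995 by limma.

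Media of the same set were also compared with each other. Between cbf1 and npl3 medium limma called 0 members, with 0.0313% of all probes called, and 0 members had an unadjusted p under 0.05 (1.5% of all probes). In cbf1 medium 9 of 40 members lay above their level in npl3 medium, against 49.5% of all probes, with a median of -0.026 against -5.7e-04 over all probes. ARO3 (-0.13 ± 0.079), ARO8 (-0.07 ± 0.043), ARG4 (-0.06 ± 0.044) and LYS20 (-0.13 ± 0.11) had the smallest p values, with adjusted p of 0.9995 by limma. All 6 shared aromatic genes were on the lower side.

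Between bur2 and cho2 medium limma called 0 of 40 members (background 0%), the smallest adjusted p being 0.519. At an unadjusted p under 0.05 there were 8 members, 6 higher in bur2 medium and 2 lower, where 8.33% of all probes passed, 4.96% higher and 3.37% lower. The 8 became 4 without either bur2 array, 3 without the second cho2 array and 2 without the dye term. CPA1 had the largest difference, with ratios of 0.19 and 0.11 in bur2 medium against -0.02 and -0.10 in cho2 medium, or 0.21 ± 0.046 (95% interval 0.11 to 0.32, limma adjusted p = 0.519). ASN2 stood at 0.02 and -0.04 in bur2 medium and -0.11 and -0.16 in cho2 medium, a difference of 0.12 ± 0.039 with the same adjusted p. The difference was 0.11 ± 0.035 for THR1 and -0.11 ± 0.039 for HIS7, both with groups that do not overlap, as in 15 of 40 members and 28.4% of all probes. Further members under that limit were TRP3, ARO8 and LYS9, higher in bur2 medium, and ARG8, lower. By branch, all 4 tryptophan genes lay higher in bur2 medium, with a median of 0.10, and all 4 serine genes lower, with a median of -0.047. Of all probes 50.5% lay higher. Of these genes 1 tryptophan gene and 0 serine genes were under the unadjusted limit. The median over all members was 0.017 and turned to -0.019 without the first bur2 array.

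**Figure D4:**
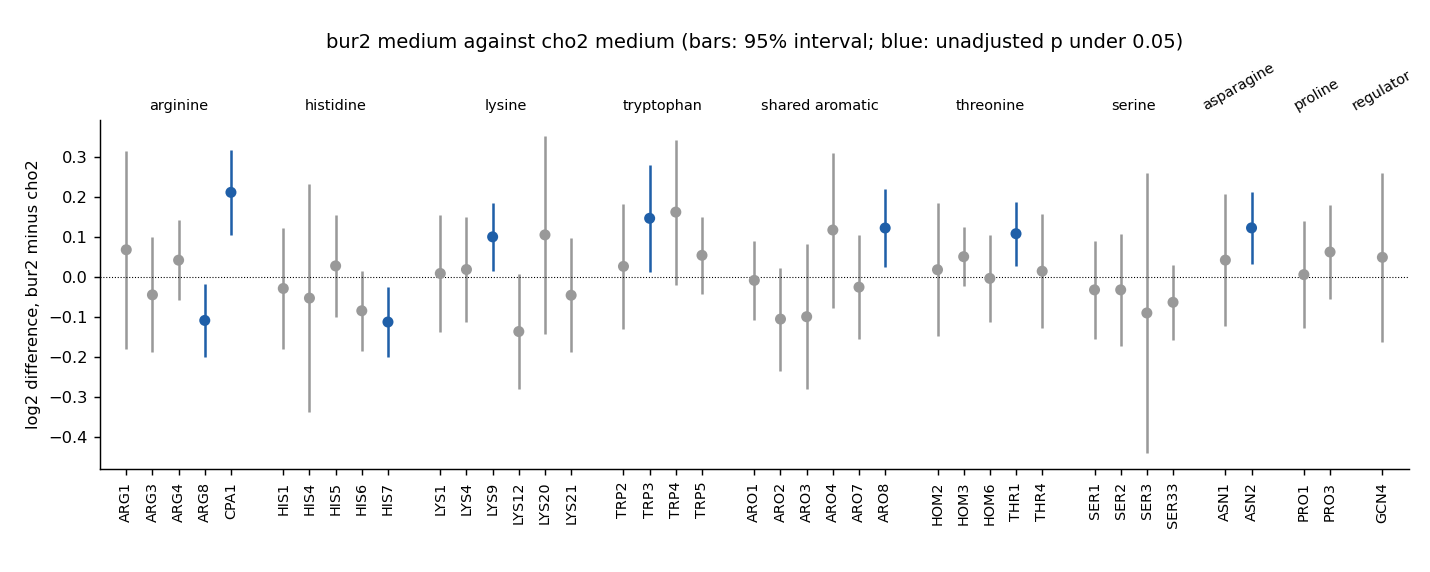
Log2 difference between bur2 and cho2 medium (vertical axis) for the 40 members grouped by branch (horizontal axis), as the fitted value (point) with its 95% interval (bar), n = 2 arrays per group. Blue marks the 8 members at an unadjusted p under 0.05, of which CPA1 (0.21) differs most, and 0 members passed after adjustment.

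Among the comparisons between media, that of the sets of arrays gave the most calls. Between the first and the second set limma called 2 of 40 members, both higher in the first, where 9.88% of all probes were called, 5.28% higher and 4.6% lower. At an unadjusted p under 0.05 there were 12 members, 8 higher and 4 lower in the first set, against 28.4% of all probes, 15.9% higher and 12.5% lower. The member median was 0.020, against 0.0048 over all probes. The arrays of the first set were also brighter, with median signals of 327 to 507 in Cy5 and 254 to 367 in Cy3 against 185 to 264 and 170 to 193, and each set has its own donor strains. These cannot be told apart.

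The called members were HIS6 and LYS20. HIS6 stood at 0.03 and 0.04 in cbf1 medium, 0.05 and 0.08 in npl3 medium and 0.02 and 0.18 in the first wild-type medium, and at -0.15 and -0.07 in bur2 medium, -0.09 and 0.04 in cho2 medium and -0.11 and -0.01 in the second wild-type medium. The sets meet only at the second cho2 array, and the difference was 0.13 ± 0.025 (limma, adjusted p = 0.020). LYS20 stood at -0.30 and -0.24, -0.10 and -0.18, and -0.34 and -0.17 in the first set, and at -0.30 and -0.62, -0.42 and -0.71, and -0.34 and -0.40 in the second, in the same order of media. The difference was 0.25 ± 0.062 (adjusted p = 0.045), while LYS21 differed by 0.0025 ± 0.036. Between the wild-type media alone, HIS6 differed by 0.17 (adjusted p = 0.32) and LYS20 by 0.12 (adjusted p = 0.81), and 0 members were called.

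Both calls rest on few arrays. HIS6 lost its call without the first cbf1, npl3 or cho2 array or without any array of bur2 or the second wild-type medium, with adjusted p from 0.054 to 0.072. LYS20 kept its call only without the first array of the first wild-type medium (0.0081) or of bur2 medium (0.044), with adjusted p up to 0.13 without any other array. ARG3 (-0.13 ± 0.036, adjusted p = 0.054), THR1 (0.07 ± 0.020, adjusted p = 0.064) and SER3 (0.29 ± 0.088, adjusted p = 0.077) were just outside the limit. The values of SER3 were the most scattered of all members. They ran from -0.08 to 0.49 in the first set, the highest on the first npl3 array, and from -0.29 to 0.02 in the second. Over both sets they averaged 0.11 with the sample in Cy3 and -0.08 with the sample in Cy5. SER3 is kept low in serine-rich medium by transcription of the noncoding RNA SRG1 across its promoter, and its paralogue SER33 differed between the sets by 0.03 ± 0.024.

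Other genes of the same metabolism were read as whole lists, beside 35.6% of all probes called lower than the reference and 34.4% called higher. Of 13 measured genes for other steps of these branches, 6 were lower and 3 higher than the reference, with a median of -0.063. The 13 include HIS3 (-0.12) and LYS2 (-0.02), which are deleted in this strain. ARO9 and ARO10, also included, were dim, at 1.80 and 1.34 times background. Among the 13, PHA2, the prephenate dehydratase, averaged -0.19 and TRP1 0.05. Of 9 genes that bring in nitrogen or transfer amino groups, 6 were lower and 1, the glutamate dehydrogenase gene GDH1 (0.09), was higher, and the aspartate aminotransferase gene AAT2 was lowest at -0.37 ± 0.021 (limma, adjusted p = 8.7e-07). The 21 regulators of the general control and of single branches were divided, with 8 higher and 8 lower and a median of -0.0029. BAS1, an activator of histidine and purine genes, averaged 0.23 ± 0.014 and LYS14, the activator of the lysine genes, -0.22, both called.

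Genes for breakdown of these amino acids or, in the case of GCV1, GCV2 and GCV3, of glycine were mostly lower. Of 9, 8 were lower than the reference and 1, the proline gene PUT2 (0.10), was higher, with a median of -0.19. Over all probes 35.6% were called lower and 34.4% higher. PUT1 and GCV3 were dim, at 1.62 and 1.91 times background. The arginase gene CAR1 averaged -0.52 ± 0.033 (limma, adjusted p = 1.9e-06), its partner CAR2, the ornithine aminotransferase, -0.55, and CHA1, which degrades serine and threonine, -0.35. CAR1 breaks down arginine and ARG3 serves its synthesis, and both were lower than the reference. CHA1 ranged from -0.76 in npl3 medium to -0.04 in cho2 medium and differed between the sets by -0.30 (adjusted p = 0.013). The other listed genes called between the sets were ARG7 (-0.15), TRP1 (0.11), GDH1 (0.11) and ASP1 (0.10), which with CHA1 makes 5 of 52, or 9.62%, near the 9.88% of all probes. In all, 0 genes of these lists were called in any of the 4 deletion-strain media, with 0 of 6388 probes called in each. At an unadjusted p under 0.05 by limma there were 4 of the 9 breakdown genes in npl3 medium, 1 higher and 3 lower, against 2.83% of all probes. In cbf1, bur2 and cho2 medium 0 of these 9 were under that limit. How far the npl3 count rests on single arrays was not tested. The arrays of the first wild-type medium lay apart in CHA1 (-0.27 and -0.58), GCV1 (-0.08 and -0.42) and GCV2 (0.03 and -0.35), though not in PUT2 (0.16 and 0.17).

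Members were also compared by how they varied over the arrays. With the mean of each dye removed, Pearson's r over the 12 arrays had a median of 0.075 for the 74 pairs within a branch and 0.033 for the 706 pairs between branches. These are descriptions only, since the arrays share sets, dyes and the reference. The highest were ARG1 with ASN1 (0.94), HOM2 with ASN1 (0.93) and LYS20 with ARO4 (0.93), and the lowest was HIS1 with THR4 (-0.91). The genes whose pattern was most like that of GCN4 were ARG1 (0.85) and PRO3 (0.83). With the dye left in, r was 0.75, 0.54, 0.57 and -0.41 for the highest and lowest pairs, in that order. For the pairs with GCN4 it was 0.83 and 0.81.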

How the data were processed

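Scanner files, as deposited, give for each spot the mean intensity and the background intensity of both dyes before any normalization. The authors also deposited log2 ratios per spot from the same arrays, scaled by print-tip loess. A further deposited table holds the authors' own comparisons (log2 ratios and adjusted p-values from limma 2.12.0, per the submitters' processing notes) and was not used. Of the 15552 spots on an array, 12776 carry the 6388 gene probes, each in duplicate, and the 2776 control spots were left out of the fits. The platform's annotation gave 1 symbol for 5326 probes and none for 1062, and no coordinates are given because the files name no genome build.

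The normexp correction (offset 50) was applied to the background, which draws the ratios of dim spots toward 0, and each array was normalized by loess in limma 3.58.1 under R 4.3.3. The labels' dyes set each ratio's direction as sample over reference, and duplicate spots were averaged. The series design text puts the sample in Cy5 on the first hybridization, whereas the labels put it in Cy3 on the first array of each group. The labels were followed, and the sign of every ratio rests on that choice. A single limma fit held 6 group means with dye as a further term (5 residual degrees of freedom, and 3.29 from the empirical Bayes prior). Tests were two-sided, p-values were adjusted by Benjamini-Hochberg over 6388 probes with a limit of 0.05, and intervals are at 95%. The procedure was run on simulated data with independent noise. The planted differences were larger than any member's difference between a deletion-strain medium and its wild-type medium. The simulation therefore does not show how often differences of the members' size are called. The number of arrays limits the precision, and where they are not separate cultures the p-values measure technical spread only.

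Statistics are given for every member called, or for the 4 with the smallest p where fewer were called, and for GCN4 and the isoenzyme pairs. Against the reference they are given for the 5 highest and 5 lowest members of constant sign and for the 6 with the smallest p in each direction. The members, the other gene lists and the comparisons were chosen with earlier results of these data known. In 11 columns of the deposited log2 table the direction was sample over reference (r of 0.641 to 0.932 with the scanner values across gene probes), and the column of the first cho2 array (r = -0.745) was turned. The settings varied were the background (none subtracted), the normalization (print-tip loess, median centring, or the deposited log2 table), the probes (without the darkest 25%), the duplicate spots (kept apart), the model (without dye, or with a replicate block), the samples (the arrays of 1 set), the control (all wild-type arrays, or wild-type media alone) and the arrays (each left out in turn).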

Additional observations from a re-analysis of the deposited data

Results flagged for a closer look

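The probe for HIS3 read a median of 3.96 times its background over the arrays, although BY4742 carries a deletion in this gene, while the probes of the other deleted genes LEU2 and URA3 stood at 1.14 and 1.10 and that of LYS2 at 2.01. The log2 ratios of HIS3 to the reference, which is labelled as the same strain, ran from -0.23 to 0.02. Which part of the gene the probe covers was not tested.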

How the results depend on the processing

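The counts of 0 members in the 4 deletion-strain media, between cbf1 and npl3 medium, between bur2 and cho2 medium, in the pooled comparison and in the test between sets stayed at 0 under every alternative run. Against the reference 31 to 36 members were called, and the member median was -0.16 with median centring, where the median of all probes was -0.037, and -0.12 to -0.095 otherwise. With that centring the member medians were 0.053, -0.081 and 0.12 for bur2, cho2 and bur2 against cho2 medium.

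Between the sets, 2 members were called, but 0 with median centring, 0 without the dye term, 7 with duplicate spots kept apart, 0 between the wild-type media alone, and 0 to 8 with an array left out, 8 without the first array of the first wild-type medium (HIS6, LYS20, ARG3, ARO1, ARO2, ARO4, SER3 and PRO1). The replicate block gave 5 (HIS6, LYS20, ARO1, ARO2 and THR1) and moved no other count of called members by over 1.5 times, while members at an unadjusted p under 0.05 went from 2 to 6 in cho2 medium and from 0 to 1 in the pooled comparison. Same-numbered arrays deviated together across genes within a set (r of 0.310 to 0.817) and across sets (0.319 to 0.658), but the number is also the dye. Over all probes that comparison called 631, against 277 with median centring, 1308 with spots apart, 99 without the dye term, 15 between the wild-type media and 199 to 1288 with an array left out.

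LYS20 lost its call there with loess per print tip (adjusted p = 0.082) and in the deposited table (0.067), and ARG3 and CPA1 were called in both. Probes called in the other comparisons, 0 each but 2 between cbf1 and npl3 medium, were 45 in bur2, 6 in npl3 and 1 in cbf1 medium, 46 between bur2 and cho2 medium and 9 between cbf1 and npl3 medium with spots apart, 57, 8 and 8 in bur2, npl3 and cho2 medium against all wild-type arrays, 3 between bur2 and cho2 medium in the deposited table, and at most 36 with an array left out (npl3 medium without the second array of the first wild-type medium).

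Directions turned for HIS6 in cbf1 medium against all wild-type arrays (0.015), for LYS21 between the sets with an array left out (-0.031 to 0.036), and for SER3 against the reference with loess per print tip (-0.028), in the deposited table (-0.074) and with an array left out (-0.033 to 0.061). ARO3 against the reference lost its call with loess per print tip (adjusted p = 0.052) and without the dye term (0.051). LYS21 gained one with median centring (-0.08, adjusted p = 0.0061) and without the second cho2 array (-0.04, adjusted p = 0.042). The causes were not tested. Of 1649 alternative values for 79 results, 1557 kept their direction and their side of the limit.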
